A study of Mus musculus with 12 samples.

Results

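The 10 genes described here encode immediate-early factors: the FOS-type proteins Fos, Fosb and Fosl2, the JUN-type proteins Jun, Junb and Jund, the EGR zinc-finger proteins Egr1, Egr2 and Egr3, and the phosphatase Dusp1. They were taken by gene symbol from a count table of 23282 rows, in which each symbol stood on 1 row, and 9 of the 10 passed the filter on low counts, as did 11857 genes in all. Transcripts were counted in splenic B cells of C57BL/6 wild-type mice aged 7 weeks, in 4 groups of 3 libraries. The control mice received no treatment. The ODN mice received 50 µg of the class B CpG-ODN 1826, a ligand of the endosomal DNA sensor TLR9, into the peritoneum on days 1 and 3. The IM156 mice received IM156, named by the series title as an inhibitor of oxidative phosphorylation, also into the peritoneum, on days 0 and 2 at a dose of 30 mg/kg. The ODN+IM156 mice received both agents on those days, and all spleens were taken on day 4. The series text calls the mice lupus-prone while the labels give the wild-type strain. No vehicle injection is named for the controls, so that effects of an agent and of its injection cannot be told apart. No label says how many animals stand behind a library, and p-values measure the spread between these libraries only.

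Immediate-early genes are transcribed within minutes of a signal, without new protein synthesis, through factors such as SRF, its ELK partners and CREB that MAP kinases activate. FOS and JUN proteins pair through leucine zippers to form AP-1, which binds its own site in DNA, and EGR proteins bind GC-rich sites. Dusp1 dephosphorylates MAP kinases and so ends the signal that induces it. In B cells these genes respond to the antigen receptor, to Toll-like receptors and to the handling of tissue. The spleens were taken a day after the last ODN injection, so the levels are those of that time and not of the first response.

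Levels are given as CPM, counts scaled to an equal library size with trimmed-mean (TMM) factors, in the order of replicates 1, 2 and 3. A gene is called when its adjusted p is below 0.05 in edgeR's quasi-likelihood test over all genes. Differences between groups are log2 fold changes, with the fit's standard error (SE). Total counts per library lay between 9650775 and 11532525. Among the ODN libraries, replicate 2 had 1.46% of its counts in the ribosomal RNA row Rn45s against 7.98% and 8.42% in replicates 1 and 3. Xist, transcribed from the inactive X, was near absent from ODN replicate 3 (1 count), while the remaining 11 libraries held 923.9 to 1320 CPM. The 12 B-cell markers, Cd79a and Ms4a1 among them, summed to 8730 to 9440 CPM over all libraries, and none was at 0 in a group. In this bulk RNA, fewer cells of a type and less RNA per cell cannot be told apart.

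ODN without IM156 lowered 4 of the 9 tested factors, Fos, Fosb, Junb and Dusp1, to between 0.509 and 0.643 of the control level. Over all genes 3.25% were called lower and 7.34% higher in this comparison, and no member was called higher. In each of the 4 the ODN libraries lay below all control libraries, as they did in 11.3% of all genes tested. The median of the 9 members was -0.27, against 0 over all genes.

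Fos, the founding FOS protein, stood at 164, 184 and 216 CPM in control and at 142, 113 and 108 with ODN. The groups did not overlap, and the change was -0.64 (SE 0.12, adjusted p = 0.00172, n = 3 per group). Fosb, its close relative, stood at 166, 122 and 166 CPM in control and at 96.7, 70 and 64.9 with ODN. The highest ODN library lay below the lowest control library, and the fall was the largest among the members by fold (-0.97, SE 0.182, adjusted p = 0.0016). Fos lies on the plus strand at chr12:85473890-85477273 and Fosb on the minus strand at chr7:19302696-19310051 (GRCm38, GENCODE M21).

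Fosl2, the third FOS-type gene listed, had 1 to 10 counts per library and did not pass the filter. Its counts summed to 11 in control, 22 with ODN, 20 with IM156 and 14 with ODN+IM156, too few to show a difference at this depth. In a fit without the filter its ODN change was 0.95 (SE 0.972, adjusted p = 0.676).

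Among the JUN proteins only Junb was called. Junb, which partners FOS proteins and restrains Jun, stood at 347, 305 and 287 CPM in control and at 212, 190 and 190 with ODN (-0.67, SE 0.0959, adjusted p = 0.000207). All 3 ODN libraries lay below the lowest control. Jun itself stood at 213, 158 and 173 CPM in control and at 188, 137 and 143 with ODN, groups that overlap (-0.22, 95% interval -0.55 to 0.11, adjusted p = 0.418). Jund, the JUN protein of resting cells, stood at 398, 270 and 279 CPM in control and at 262, 273 and 247 with ODN (-0.27, 95% interval -0.54 to -0.01, adjusted p = 0.18). Control replicate 1 was the highest of the Jund values in both groups, and without it the change was -0.08 (adjusted p = 0.705). Without that library the change of Jun was -0.09, and without ODN replicate 1 it was -0.38, neither called.

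Junb lies at chr8:84974484-84978718 on the minus strand and shares 173 exonic bases at its 3' end, the end these libraries read, with Prdx2 on the opposite strand. The strand rule of the counting is not given, so reads of the shared stretch cannot be assigned. Prdx2, a peroxiredoxin, moved the other way from Junb under ODN, from 57.2 ± 4.99 to 90.6 ± 15 CPM (SD, n = 3; 0.66, SE 0.115, adjusted p = 0.001). Jund shares 877 exonic bases with the antisense gene Gm11175, which has no row of its own in the table. That overlap begins 536 bases from the 3' end of Jund, whereas that of Junb lies at its 3' end.

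Dusp1, the phosphatase that acts on the MAP kinases, stood at 77.7, 91.6 and 84.8 CPM in control and at 35.6, 60.7 and 47.6 with ODN. Its ODN libraries varied more than the control libraries (26.1% and 8.17% coefficient of variation) and still did not reach them (-0.82, SE 0.141, adjusted p = 0.000963). Dusp1 is annotated in GENCODE M21 at chr17:26505590-26562128 on the minus strand, and Ergic1 on the other strand overlaps only 11 exonic bases of it, far from its 3' end.

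None of the 3 EGR genes was called with ODN. Egr1, a mitogen-induced activator, stood at 41.3, 45.8 and 44 CPM in control and at 42.8, 35.7 and 39.8 with ODN (-0.15, 95% interval -0.41 to 0.11, adjusted p = 0.48). Egr2, which restrains lymphocyte activation, had 8.45, 6.81 and 6.1 CPM in control and 5.42, 9.36 and 6.41 with ODN (0, SE 0.252, adjusted p = 0.993). Egr3, its relative, stood at 44.3, 70.4 and 62.4 CPM in control and at 74.8, 77 and 74.3 with ODN (0.35, SE 0.127, adjusted p = 0.0855). Both Egr1 and Egr2 overlapped between groups, whereas all ODN libraries of Egr3 lay above the highest control without the gene being called. Such a gap, upward, was seen in 13.2% of all genes. Control replicate 1 held the lowest Egr3 value: without it the change was 0.18 (adjusted p = 0.293), and without control replicate 2 it was 0.5 and called (adjusted p = 0.0259).

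**Figure D1:**
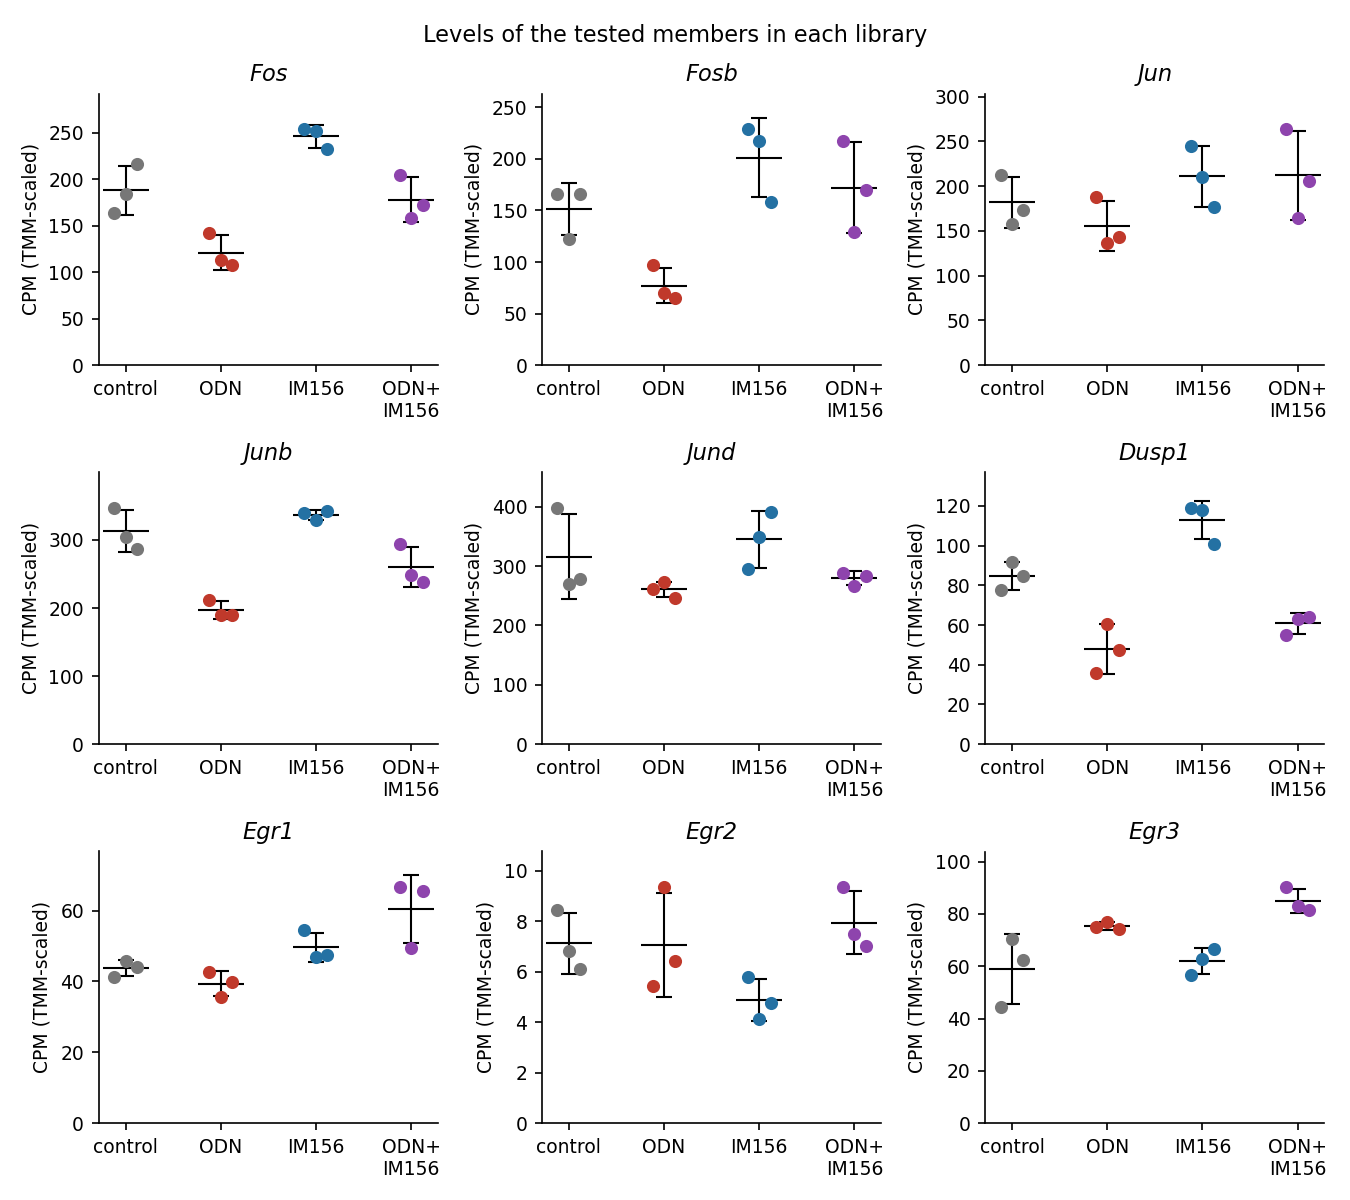
Levels of the 9 tested members in CPM (vertical axes, from 0) in the 4 groups. Coloured points are single libraries, the bar is the mean and the whiskers are the SD of 3 libraries. In Fos, Fosb, Junb and Dusp1 the 3 ODN libraries lie below all control libraries, and in Egr3 above them.

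The 4 calls were made in each of the 20 alternative fits, with ODN replicate 2 or 3 left out among them. Log2 fold changes then ranged from -0.77 to -0.52 for Fos, -1.17 to -0.87 for Fosb, -0.73 to -0.59 for Junb and -1.02 to -0.65 for Dusp1.

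The promoters of these 4 genes are shown because the genes fell together. The windows are the 250 bases before the RefSeq transcription start (GRCm38.p6), which the RefSeq table holds for 8 of the 10 members. They lie at chr12:85473640-85473889 on the plus strand for Fos and at chr7:19310046-19310295, chr8:84978749-84978998 and chr17:26508473-26508722 on the minus strand for Fosb, Junb and Dusp1. The windows of Jun (chr4:95052223-95052472, minus strand) and of Egr2 (chr10:67537619-67537868, plus strand, 1 of its 5 annotated starts) are added as members that were not called. Capitals mark matches, on either strand, to TGACG (the core of the cyclic AMP response element, CRE, read as CGTCA on the other strand), to the full CRE TGACGTCA that contains it, to the EGR site GCGNGGGCG and to the CArG box that SRF binds.
Fos: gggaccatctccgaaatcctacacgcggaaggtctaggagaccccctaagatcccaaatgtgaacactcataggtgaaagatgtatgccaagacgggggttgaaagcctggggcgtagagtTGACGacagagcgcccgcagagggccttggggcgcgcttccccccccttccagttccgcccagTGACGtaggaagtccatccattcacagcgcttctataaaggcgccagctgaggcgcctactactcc
Fosb: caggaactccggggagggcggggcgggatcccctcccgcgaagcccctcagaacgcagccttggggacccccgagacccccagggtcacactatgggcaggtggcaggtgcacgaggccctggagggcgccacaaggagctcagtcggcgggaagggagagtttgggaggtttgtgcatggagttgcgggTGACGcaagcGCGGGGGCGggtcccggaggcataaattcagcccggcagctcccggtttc
Junb: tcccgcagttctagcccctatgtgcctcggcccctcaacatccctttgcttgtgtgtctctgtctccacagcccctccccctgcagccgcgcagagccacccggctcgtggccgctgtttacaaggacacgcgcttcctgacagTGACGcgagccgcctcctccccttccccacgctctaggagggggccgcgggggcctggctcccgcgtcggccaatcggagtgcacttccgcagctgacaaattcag
Dusp1: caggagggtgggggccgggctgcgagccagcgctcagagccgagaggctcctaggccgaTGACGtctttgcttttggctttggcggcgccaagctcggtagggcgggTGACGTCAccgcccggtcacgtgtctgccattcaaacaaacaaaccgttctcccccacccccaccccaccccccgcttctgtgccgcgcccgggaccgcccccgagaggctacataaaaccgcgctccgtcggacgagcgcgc
Jun: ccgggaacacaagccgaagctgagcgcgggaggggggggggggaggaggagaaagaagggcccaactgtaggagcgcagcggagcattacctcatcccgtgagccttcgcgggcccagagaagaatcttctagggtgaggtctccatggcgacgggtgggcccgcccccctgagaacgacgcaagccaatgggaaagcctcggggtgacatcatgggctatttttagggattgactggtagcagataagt
Egr2: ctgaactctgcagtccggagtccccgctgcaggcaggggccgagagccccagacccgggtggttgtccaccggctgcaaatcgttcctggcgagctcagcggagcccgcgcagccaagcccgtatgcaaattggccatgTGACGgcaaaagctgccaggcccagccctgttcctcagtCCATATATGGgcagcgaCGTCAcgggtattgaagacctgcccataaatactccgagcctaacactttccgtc

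Each of the 4 genes that fell holds TGACG in its window, a match found in 17.8% of the 32851 promoter windows of this length. These windows belong to 27025 genes, not only to those tested here. Fos has it at 129 to 125 and at 66 to 62 bases before the start, Fosb at 60 to 56, Junb at 106 to 102 and Dusp1 at 191 to 187 and, inside a full CRE, at 143 to 136. The full CRE stands in 1.55% of all windows. Fosb also holds an EGR site at 50 to 42 bases before its start (4.7% of windows). The window shown for Egr2, which was not called, was picked from those of its windows that hold TGACG. There TGACG lies at 111 to 107 and 55 to 51 bases before the start. A CArG box lies at 72 to 63 (1.47% of windows). Of the other Egr2 windows, chr10:67537316-67537565 holds a CArG box without TGACG and chr10:67535249-67535498 holds none of these motifs. The Jun window holds no exact match to these motifs, and includes the similar TGACATCA. The AP-1 site TGANTCA, present in 6.75% of windows, was in no window of the 8 members. The Jund window, chr8:70697489-70697738, ends upstream of the Jund gene as annotated in GENCODE M21, which starts at 70698949. It therefore does not show the sequence just before that start. The Dusp1 window lies inside the Dusp1 gene of that annotation, which on the minus strand starts at 26562128. The RefSeq and GENCODE starts of Dusp1 thus differ. Sequence further than 250 bases before a start was not searched for any of these motifs. These are matches of letters, and binding was not measured here.

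**Figure D2:**
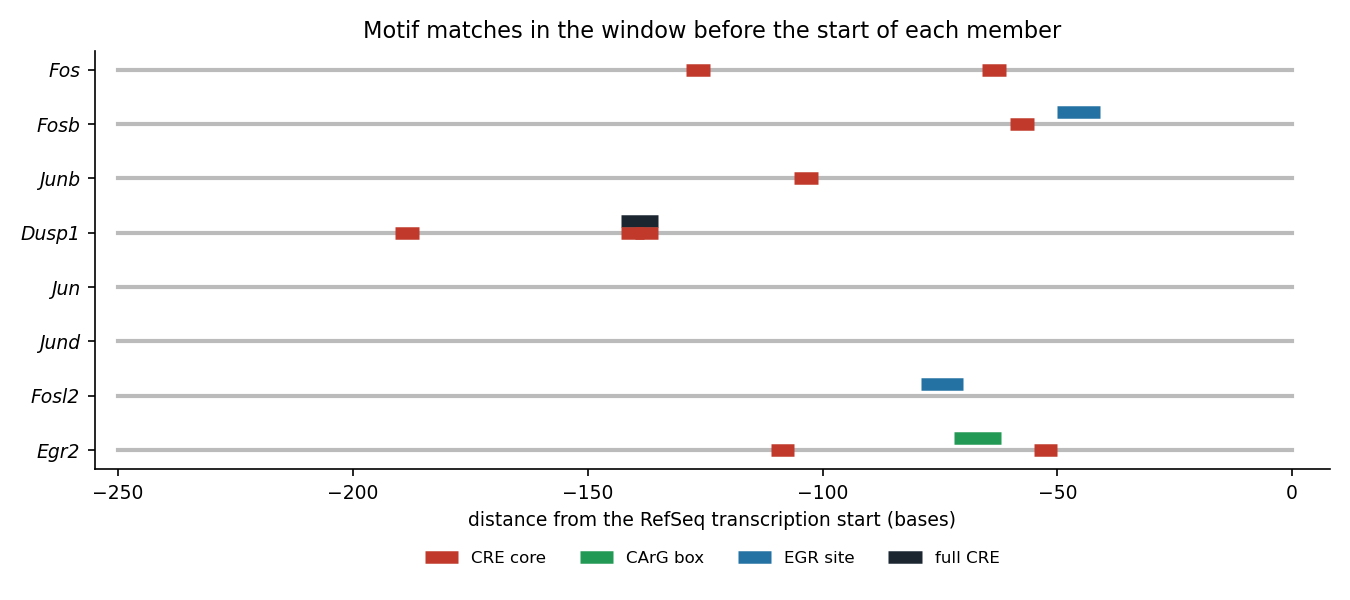
Motif matches (coloured bars) along the window before the RefSeq start of 8 members, as distance in bases on the horizontal axis, with the start at 0. Each row is 1 gene, and for Egr2 the start shown is 1 of those whose window holds the CRE core. The CRE core appears in Fos, Fosb, Junb, Dusp1 and Egr2. The Jund window ends upstream of the Jund gene as annotated in GENCODE M21, and the Dusp1 window lies inside the Dusp1 gene of that annotation.

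The same agent was measured a second time, in other libraries, by comparing ODN+IM156 with IM156 alone. Under IM156, ODN lowered Fos, Junb and Dusp1, 3 of the 9 members, where 0.734% of all genes were called lower. Fos stood at 254, 252 and 232 CPM with IM156 and at 205, 158 and 172 with both agents (-0.46, SE 0.119, adjusted p = 0.0436). Junb stood at 340, 329 and 343 CPM and at 294, 248 and 238 (-0.38, SE 0.0953, adjusted p = 0.0417). Dusp1 stood at 119, 118 and 101 CPM and at 55, 63.2 and 64.3 (-0.89, SE 0.139, adjusted p = 0.000815). None of these 3 genes overlapped between the groups, nor did Jund (IM156 295, 349 and 391 CPM, both agents 289, 266 and 284), which was not called. Over all genes 11.8% lay lower without overlap. Dusp1 was at 0.54 of its IM156 level.

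Fosb, which had the largest fall without IM156, stood at 229, 217 and 158 CPM with IM156 and at 217, 129 and 170 with both agents. These groups overlap, and the change was -0.23 (95% interval -0.6 to 0.14, adjusted p = 0.624), or -0.43 without ODN+IM156 replicate 1 and -0.06 without ODN+IM156 replicate 2. Egr3 stood at 56.5, 62.6 and 66.6 CPM with IM156 and at 90.3, 83.1 and 81.6 with both (0.46, SE 0.126, adjusted p = 0.0631). Egr2 had 5.78, 4.11 and 4.78 CPM with IM156 and 9.34, 7.5 and 7 with both (0.7, SE 0.256, adjusted p = 0.181), and its counts, 44 to 99 per library, were the lowest among the tested members. Egr3 and Egr2 were higher without overlap, as were 12.8% of all genes, and neither was called. Jund and Egr1 had changes of -0.3 and 0.29 (adjusted p = 0.262 each) and Jun of 0.01 (adjusted p = 0.991). Over both measurements of ODN, 6 of the 9 members had the same sign, against 61% of all genes tested.

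The call of Dusp1 held in all 20 alternative fits, with changes from -0.96 to -0.82. Fos lost its call without control replicate 2 (adjusted p = 0.0554), without IM156 replicates 1, 2 or 3 (0.136, 0.16 and 0.0994) and without ODN+IM156 replicates 2 or 3 (0.214 and 0.168), and Junb without IM156 replicates 1, 2 or 3 (0.118, 0.117 and 0.163) and ODN+IM156 replicates 2 or 3 (0.181 and 0.205). Egr3 gained a call, as a rise, without control replicates 1 or 2 (adjusted p = 0.00948 and 0.0417). It did so too without ODN replicates 1 or 3 (0.0325 and 0.0428). Control and ODN libraries enter this comparison only through the estimate of spread, and the Egr3 change stayed at 0.46. The change of Fos without control replicate 2 stayed at -0.46. Egr3 was also called with DESeq2 (0.0232), without the filter (0.00254) and with these 2 groups alone (0.00135), where Jund was called lower (0.0347).

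With 6 libraries that received ODN against 6 that did not, 5 members were lower and 1 was higher, where 4.09% of all genes were called lower and 8.09% higher. These averages use the same libraries as the comparisons above. Dusp1 fell by 0.85 on the log2 scale (SE 0.0988, adjusted p = 1.23e-05), from a mean of 98.6 to 54.4 CPM, and all 6 libraries with ODN lay below all 6 without, as in 1.59% of all genes. Junb (-0.52, SE 0.0676, adjusted p = 3.89e-05), Fos (-0.55, adjusted p = 0.000197), Fosb (-0.6, adjusted p = 0.00315) and Jund (-0.29, adjusted p = 0.0393) fell with overlap of single libraries. Egr3 rose from a mean of 60.5 to 80.2 CPM (0.4, SE 0.0895, adjusted p = 0.00468), and all 6 libraries with ODN lay above all 6 without, as in 3.49% of all genes. Fosb lost its call only in the robust fit (adjusted p = 0.0501). Jund lost its call without control replicate 1 (-0.19, adjusted p = 0.0925), ODN replicate 3 (0.0503), IM156 replicates 2 or 3 (0.0848 and 0.114) and ODN+IM156 replicates 1, 2 or 3 (0.0604, 0.0975 and 0.0747).

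IM156 alone was compared with control to ask what the inhibitor did without ODN. None of the 9 members was called, and edgeR called 0% of all genes, with 4 members and 439 of 11857 genes at an unadjusted p below 0.05. DESeq2 called 2 genes, neither of them a member. Fos had 188 ± 26.3 CPM in control and 246 ± 12.1 with IM156 (SD, n = 3; 0.39, SE 0.119, adjusted p = 0.999), and Dusp1 had 84.7 ± 6.92 and 113 ± 9.7 (0.41, SE 0.137, adjusted p = 0.999). The libraries of Fos, Dusp1 and Egr1 lay above all controls without overlap, 3 of 9 members against 5.16% of all genes, and those of Egr2 lay below all controls (5.25% of all genes). Fosb had a change of 0.41 and Egr2 of -0.54, and the other members lay between 0.07 and 0.21.

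IM156 on top of ODN gave 1 called member, Fosb, where 0.0506% of all genes were called higher. Fosb stood at 96.7, 70 and 64.9 CPM with ODN and at 217, 129 and 170 with both agents. The lowest ODN+IM156 library lay above the highest ODN library, and the level was 2.23 times that with ODN alone (1.16, SE 0.182, adjusted p = 0.017). By p-value Fosb ranked 3 among 11857 genes. The 8 genes called in this comparison were Slc15a2 (a peptide transporter), Klf4, Fosb, Phxr4, Foxo4, Armc9, Sdhd and A930013F10Rik, of which Slc15a2 and Sdhd were lower. Klf4, a zinc-finger factor that is also an early response gene, had 66.9 ± 12.7 CPM with ODN and 132 ± 25.2 with both (0.98, SE 0.148, adjusted p = 0.0133).

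All 9 tested members had positive changes in this comparison, with a median of 0.4 against -0.01 over all genes, and 5 of 9 lay above all ODN libraries without overlap, against 9.07% of all genes. These ODN libraries are also the ones compared with control above, so a value that was low in them by chance appears in both comparisons. Egr1 stood at 42.8, 35.7 and 39.8 CPM with ODN and at 66.7, 49.4 and 65.6 with both agents (0.62, SE 0.122, adjusted p = 0.0619). Fos stood at 142, 113 and 108 and at 205, 158 and 172 (0.56, SE 0.12, adjusted p = 0.0622). Junb stood at 212, 190 and 190 and at 294, 248 and 238 (0.4, SE 0.0959, adjusted p = 0.0622). These 3 genes were not called although their groups did not overlap. Jun had 156 ± 27.9 and 212 ± 50.2 CPM (0.44, adjusted p = 0.171; 0.25 without ODN+IM156 replicate 1). Dusp1 had 48 ± 12.5 and 60.8 ± 5.06 CPM (0.34, adjusted p = 0.238; 0.17 without ODN replicate 1 and 0.54 without ODN replicate 2). The others were Egr3 with 75.4 ± 1.44 and 85 ± 4.64 (0.17, adjusted p = 0.537), Egr2 7.06 ± 2.05 and 7.95 ± 1.23 (0.16, adjusted p = 0.808), and Jund 261 ± 12.7 and 280 ± 12 (0.1, adjusted p = 0.755).

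How many members passed here depended on the libraries and the fit. Fosb was not called without ODN replicate 2 (1.09, adjusted p = 0.0689), ODN+IM156 replicate 1 (0.96, 0.128) or ODN+IM156 replicate 3 (1.17, 0.117), nor with the robust fit (0.0618) or a fit of these 2 groups alone (0.104). Without ODN replicate 3, the library with 1 count of Xist, Fos, Fosb, Junb and Egr1 were called (adjusted p = 0.0241 for Fos, 0.0354 for Junb and 0.00901 for Egr1), and 798 genes in all against 8. DESeq2 called the same 4 members and 373 genes. Without ODN replicate 1, Fos was called as well (0.69, adjusted p = 0.0253), and without ODN+IM156 replicate 2 Egr1 was (0.75, adjusted p = 0.0158).

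**Figure D3:**
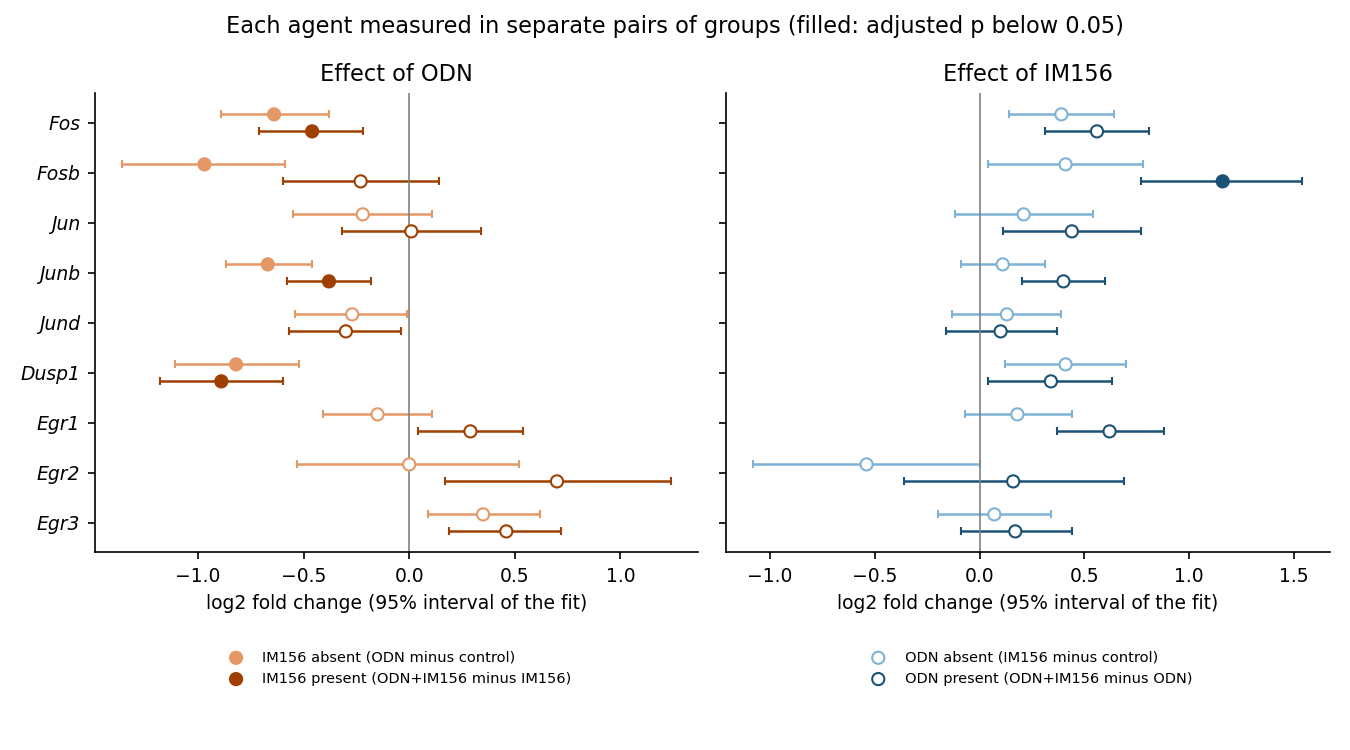
Log2 fold changes of the 9 tested members (horizontal axes) with 95% intervals of the fit, for ODN in the left panel and IM156 in the right panel, each in the absence and in the presence of the other agent; filled points passed an adjusted p below 0.05. Dusp1 falls with ODN in both settings (-0.82 and -0.89), and Fosb lies at 0.41 and 1.16 for IM156.

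Whether IM156 acted differently with and without ODN was tested by the interaction term, which subtracts its effect in mice without ODN from that in mice with ODN. No member was called, nor was any other gene (0%), while 3 members and 1453 of 11857 genes had an unadjusted p below 0.05. DESeq2 called 165 genes and no member. The interaction was 0.74 for Fosb (SE 0.253, adjusted p = 0.245), 0.44 for Egr1 (SE 0.172, adjusted p = 0.298), 0.29 for Junb (SE 0.135, adjusted p = 0.393) and -0.07 for Dusp1 (95% interval -0.48 to 0.34, adjusted p = 0.932). The ODN changes of Fosb, -0.97 without and -0.23 with IM156, were not shown to differ by this test. Without the filter on low counts the interaction of Fosb was called (0.75, adjusted p = 0.000131), 1 of 276 genes.

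Over 6 libraries with IM156 against 6 without, Fosb was the 1 gene called higher among 11857 (0.00843%), with means of 187 and 114 CPM (0.78, SE 0.127, adjusted p = 0.0367). The 1 gene called lower was Slc15a2. Fos ranked 3 by p-value (0.47, SE 0.0845, adjusted p = 0.0667) and Egr1 ranked 7 (0.4, SE 0.086, adjusted p = 0.249). All 6 Egr1 libraries with IM156 lay above all 6 without, as in 0.118% of all genes, whereas Fos and Fosb overlapped. The call of Fosb was lost without control replicates 1 or 2 (adjusted p = 0.116 and 0.174), IM156 replicates 1 or 2 (0.142 and 0.196) and ODN+IM156 replicates 1 or 3 (0.159 and 0.15), and in the robust fit (0.39). Fos was called without control replicate 3 (adjusted p = 0.0366), ODN replicates 1 or 3 (0.0034 and 0.0207) or ODN+IM156 replicate 2 (0.0382), Egr1 without ODN replicate 3 (0.035) or ODN+IM156 replicate 2 (0.0382), and Dusp1 without ODN replicate 2 (0.48, adjusted p = 0.0416). Taking IM156 without and with ODN as separate measurements in separate libraries, 8 of 9 members had the same sign, against 46.1% of all genes tested, and Egr2 was the exception (-0.54 and 0.16).

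ODN+IM156 against control gave 1 called member, Egr3, where 1.25% of all genes were called higher. Egr3 stood at 44.3, 70.4 and 62.4 CPM in control and at 90.3, 83.1 and 81.6 with both agents, with no overlap (0.52, SE 0.127, adjusted p = 0.0396). Egr1 had 43.7 ± 2.25 and 60.5 ± 9.71 CPM (0.47, SE 0.121, adjusted p = 0.0569) and Dusp1 84.7 ± 6.92 and 60.8 ± 5.06 (-0.48, SE 0.139, adjusted p = 0.102), both without overlap and neither called. Over all genes 10.2% lay higher and 9.12% lower without overlap. Fos (-0.08, 95% interval -0.33 to 0.17) and Fosb (0.18, 95% interval -0.19 to 0.55) overlapped with control. Egr3 was not called without control replicate 1 (0.36, adjusted p = 0.104) or 3 (0.0708), IM156 replicate 2 (0.0665), ODN+IM156 replicates 1, 2 or 3 (0.155, 0.103 and 0.108), or with library totals alone (0.0711). Egr1 was called without any 1 of the 3 ODN libraries or ODN+IM156 replicate 2, and Dusp1 without ODN replicate 1 or 2. Without an ODN library these changes stayed at 0.47 and -0.48, since ODN libraries enter this comparison only through the estimate of spread.

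Ordered by group mean, Fos, Junb, Jund and Dusp1 ran from ODN through ODN+IM156 and control to IM156. For Fos, ODN lay below ODN+IM156 and IM156 above control without overlap, while ODN+IM156 and control overlapped. For Dusp1 the gap lay between ODN+IM156 and control and again between control and IM156, and ODN and ODN+IM156 overlapped. For Junb only ODN was separate from its neighbour, and for Jund no neighbours were. Fosb ran from ODN through control and ODN+IM156 to IM156 with a gap only after ODN. Jun and Egr1 ran from ODN through control and IM156 to ODN+IM156, with no gap in Jun and 1 between control and IM156 in Egr1. Egr3 had the order control, IM156, ODN, ODN+IM156, with gaps at both sides of ODN, and Egr2 had no gap. The highest mean was 2.61 times the lowest for Fosb, 2.35 for Dusp1, 2.03 for Fos and 1.71 for Junb, against 1.32 to 1.62 for the other tested members.

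Across the 12 libraries, Pearson's r of log2(CPM + 1) was 0.92 between Fos and Fosb, 0.87 between Fos and Junb, 0.85 between Fosb and Jun and 0.79 between Junb and Dusp1. Egr3 ran against Jund (-0.65) and Junb (-0.59). The libraries share their treatments, so these values describe the groups as much as the genes. After subtraction of group means Fosb and Jun still ran together (0.93), as did Fos and Fosb (0.73), while Dusp1 ran against Junb (-0.63) and Jun (-0.53). Among 11848 genes that are not members, the 2 most like Fosb were Klf4 (0.94) and Gon4l (0.9), and those most like Fos were A330023F24Rik and Klf4 (0.91 each). Junb was most like 9430038I01Rik (0.94) and Klf6 (0.93), Dusp1 like Mfhas1 (0.95) and Mettl8 (0.94), Jun like Josd2 and Polr2c (0.87 each) and Jund like Eif4a3 (0.92) and Tmem259 (0.91). Egr1 was most like Dennd4b (0.87) and Ceacam16 (0.85), Egr2 like AF067061 (0.88) and Il18bp (0.82), and Egr3 like Dgcr6 (0.94) and Cpq (0.92). After subtraction of group means the 2 most like genes were others for every tested member. For Fosb they were then Luzp1 (0.94) and Chst3 (0.92), and for Fos Axl (0.96) and Azin1 (0.95). After that subtraction 264 of the 11848 genes were more like Fos than Fosb was, and 1 was more like Fosb than Jun was. On levels 243 were more like Dusp1 than Junb was, and 21 were more like Junb than Fos was. There 5 were more like Jun than Fosb was, and 0 were more like Fos than Fosb was.

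Other early response genes fell in part with ODN and none was called higher. Of 31 tested genes of that list (32 listed), 7 were called lower, where 3.25% of all genes were. Of the 31 changes 25 were negative (median -0.26, against 0 over all genes). Rhob, a small GTPase, had 26.2 ± 4.95 CPM in control and 11.8 ± 1.24 with ODN (-1.15, SE 0.174, adjusted p = 0.00034), Klf6, a zinc-finger factor, 351 ± 58 and 186 ± 11.9 (-0.92, SE 0.141, adjusted p = 0.000377), and Klf4 146 ± 25.8 and 66.9 ± 12.7 (-1.12, SE 0.148, adjusted p = 9.3e-05). The nuclear receptor gene Nr4a2 had 3.54 ± 0.941 CPM in control and 0.825 ± 0.0972 with ODN (-2.09, SE 0.432, adjusted p = 0.0035). With ODN on top of IM156, 6 of the 31 genes were lower, where 0.734% of all genes were. Among the 6 were Zfp36l2, an mRNA decay factor (-1.46, SE 0.263, adjusted p = 0.00329), and the activation marker Cd69, from 93.1 ± 3.02 to 53.7 ± 3.91 CPM (-0.79, SE 0.115, adjusted p = 0.000394). Over 6 against 6 libraries 14 of the 31 fell with ODN, where 4.09% of all genes were called lower. Adding IM156 to ODN raised 1 of the 31, Klf4, where 0.0506% of all genes were called higher, with 23 of 31 changes positive (median 0.13).

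Among relatives and partners of the members, 1 gene was called higher with ODN and 1 lower. Of 13 tested genes among 16 listed, with Fosl1, Egr4 and Batf2 below the filter, Batf rose with ODN and Mafk fell. Over all genes 7.34% were called higher and 3.25% lower, so 1 of 13 is close to the share called higher. Batf, an AP-1 partner that binds with JUN proteins and IRF4, had 10.5 ± 2.28 CPM in control and 20.8 ± 5.26 with ODN (0.98, SE 0.201, adjusted p = 0.00312). Mafk, a small MAF protein, had 28 ± 0.609 and 20.8 ± 3.66 CPM (-0.43, SE 0.132, adjusted p = 0.0441). Over 6 against 6 libraries Batf (0.81), Maf (0.59) and Nab1, a corepressor of EGR proteins (0.27, SE 0.0661, adjusted p = 0.00909), rose with ODN. That is 3 of 13, where 8.09% of all genes were called higher. No gene of this list was called for IM156, with or without ODN. When IM156 was added to ODN, 10 of the 13 changes were positive (median 0.2, against -0.01 over all genes).

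**Figure D4:**
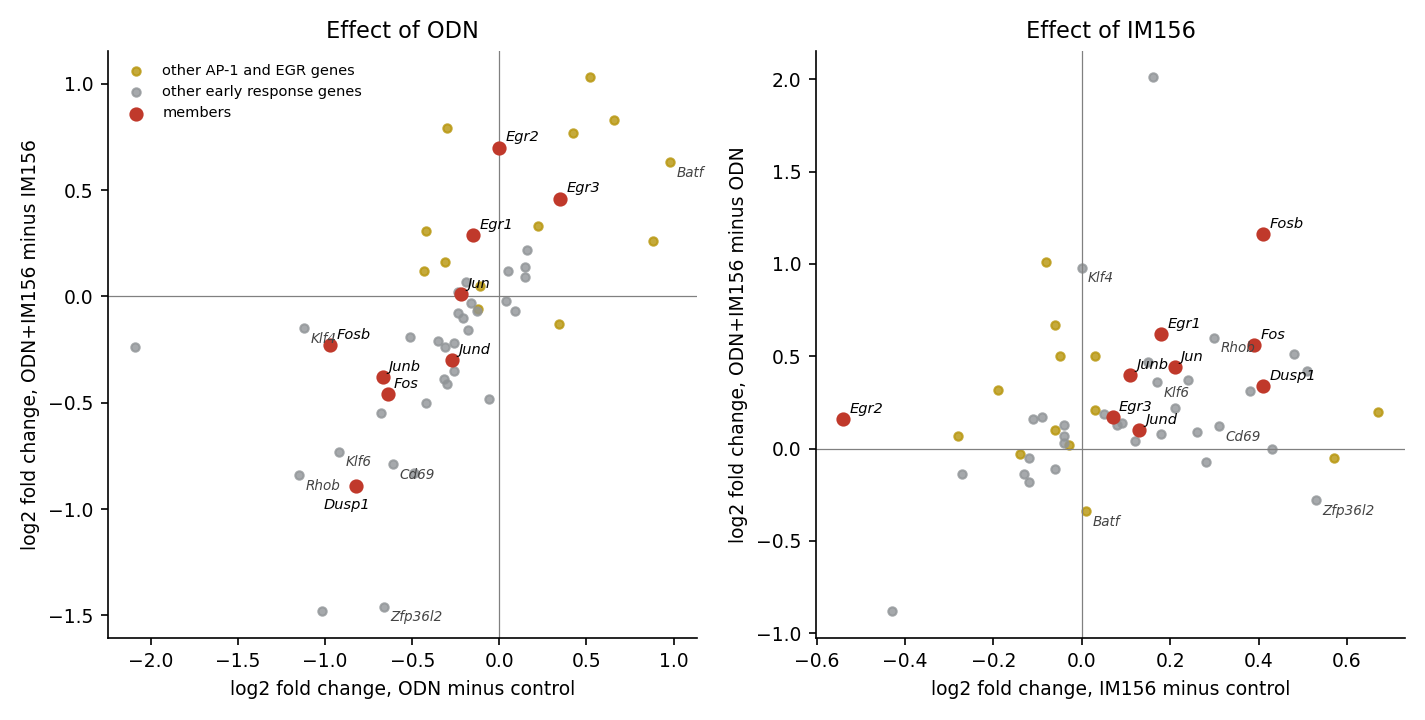
Log2 fold changes of the members (red), 13 other AP-1 and EGR genes (ochre) and 31 other early response genes (grey), each agent measured without the other (horizontal axis) and with it (vertical axis) in separate libraries. Dusp1, Klf6, Rhob and Cd69 lie at negative values on both axes for ODN, and Fosb (0.41 and 1.16) lies at positive values on both for IM156.

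Among 9 tested MAP kinase phosphatases and feedback genes (14 listed), Dusp2, a phosphatase of lymphocytes, had 445 ± 71.9 CPM in control and 340 ± 35 with ODN (-0.39, SE 0.109, adjusted p = 0.0267), the 1 call of that list. With IM156 present, Dusp2 had 497 ± 5.66 CPM with IM156 and 338 ± 24.8 with both agents (-0.56, SE 0.109, adjusted p = 0.00758) and Dusp3 fell as well (-0.83, adjusted p = 0.0411). Of 31 tested MAP kinases and upstream factors (32 listed), such as Srf, Elk1 and Creb1, only Mapk11, which encodes p38 beta, was called with ODN (from 32.6 ± 4.51 to 20.6 ± 2.15 CPM, -0.66, SE 0.135, adjusted p = 0.00327). The median of that list was -0.07. Over all genes 3.25% were called lower with ODN and 0.734% with ODN on top of IM156.

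Heat shock genes, which also respond to the handling of cells, were measured beside the members. With ODN 3 of 13 were called higher and none lower, where 7.34% of all genes were called higher. The 3 were Hspa8 (0.51, SE 0.107, adjusted p = 0.00406), Hspe1 (0.49, adjusted p = 0.00215) and Hsp90aa1 (0.3, adjusted p = 0.0347). Over the 13 genes, 7 changes were positive and 6 negative (median 0.11, against 0 over all genes). No heat shock gene was called with IM156 alone or added to ODN, where the medians were -0.04 and -0.13. The part of handling in the members' levels was not tested.

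Markers of other cells moved with ODN as well. Summed levels of 10 platelet and megakaryocyte markers were 30.7 to 47.7 CPM in control and 49.2 to 49.5 with IM156, but 119 to 204 with ODN and 112 to 159 with ODN+IM156. Erythroid markers (11 of 12 in the table) summed to 679 to 872 CPM in control, 107 to 255 with ODN, 91.1 to 565 with IM156 and 65 to 138 with both. The 11 neutrophil markers in the table summed to 6 to 9.54 CPM in control, 24.2 to 89.9 with ODN, 2.99 to 6.91 with IM156 and 19.4 to 25.7 with both, with Elane at 0 in control and ODN, Mmp8 at 0 in control, and Mpo, Camp and Ltf at 0 with IM156. Monocyte and macrophage markers (12) summed to 38.5 to 73.9, 49.4 to 91.3, 43.2 to 78.9 and 68.9 to 122 CPM in the same order. For 10 NK-cell markers the sums were 4.45 to 5.07, 16 to 25.3, 3.24 to 5.24 and 10.5 to 16.3 CPM, with Ncr1, Klre1 and Gzmb at 0 in control and IM156. T-cell markers (11 of 12) summed to 27.1 to 34.5 CPM in control, 35 to 42.3 with ODN, 30.6 to 34.3 with IM156 and 37.5 to 51.3 with both. Every library with ODN thus lay above every library without it. Dendritic cell markers (10) lay between 213 and 263 CPM and plasma cell markers (8) between 790 and 1040 over all libraries. Many of these cells express immediate-early genes too, and their part in the members' levels was not tested.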

How the data were processed

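Transcript levels in splenic B cells were measured in 12 libraries. Per the labels' protocols, TRIzol RNA was made into Lexogen QuantSeq 3' libraries, whose reads come from the 3' end of transcripts and carry no length scaling. The deposited table gives raw read counts per gene symbol. Per the submitters' processing notes, Bowtie2, bedtools and edgeR were used with GRCm38 (mm10); their versions, the annotation and the strand rule are not given in the sources used here. The same deposited table holds the authors' fold changes (a linear ratio of group means) and the authors' p-values, whose test is not stated; 16 columns of normalized values and averages were not used.

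The test was edgeR's quasi-likelihood test (edgeR 4.0.16, R 4.3.3) after filterByExpr (minimum count 10, minimum total 15) and TMM scaling, with a mean for each group over all 12 libraries (8 residual degrees of freedom). P-values are two-sided and adjusted with Benjamini-Hochberg over the 11857 genes of a comparison. Libraries held 9650775 to 11532525 counts, with a median of 258 per tested gene; intervals are at 95% and reads carry no molecular identifiers. Counts were simulated for ODN against control over 11857 genes. In them, 33% of changes of 0.5 and 78% of changes of 1 (log2) were called, with 5.1% false calls. Fewer genes were changed in the simulation than the 1255 called in the data, so these shares need not hold for the comparisons. Alternatives were DESeq2 1.42.0, other scalings, no filter, a robust fit, fits of the compared groups alone, no Rn45s row, a replicate block and leaving out each library. The members, the 5 gene lists and the marker lists were chosen with earlier results of these data known. All members are named; of each list up to 4 called genes with the largest change per comparison are named, and for likeness of pattern the 2 genes of highest correlation with each member. The genes called in comparisons with 10 calls or fewer are also named, chosen after their values were seen.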

Additional observations from a re-analysis of the deposited data

How the results depend on the processing

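Of 16 calls of members in the 8 comparisons, 9 were made in every alternative fit run, and no called value changed sign. For ODN against control 4 members were called, 5 without the filter on low counts; leaving out single libraries gave 4 to 5. For the average effect of ODN 6 were called, and 5 to 6 on leaving out libraries. For ODN+IM156 against ODN 1 was called, against 2 with library totals alone, 5 without the filter, 3 with the robust fit, 4 with DESeq2 and 0 with these groups alone (0 to 4 without single libraries). For ODN+IM156 against control 1 was called, against 0 with library totals alone, 3 without the filter, 2 with the robust fit, 3 with DESeq2 and 3 with these groups alone (0 to 3 without single libraries). For ODN+IM156 against IM156 3 were called, against 5 with these groups alone (1 to 4 without single libraries). For the average effect of IM156 1 was called, against 2 with library totals alone, 6 without the filter, 0 with the robust fit and 3 with DESeq2 (0 to 3 without single libraries). Without the filter, IM156 against control gave 2 (Fos and Fosb) and the interaction 1 (Fosb), against 0 each, and leaving out libraries gave 0 in both. The cause of these shifts was not tested. Over all genes, ODN against control gave 1255 calls, and 598 with these groups alone. ODN+IM156 against ODN gave 8, and 664 without the filter, 124 with the robust fit, 373 with DESeq2, 3 with the replicate block and 1 with these groups alone. ODN+IM156 against control gave 188, and 531 without the filter, 324 with DESeq2 and 396 with these groups alone. ODN+IM156 against IM156 gave 293, and 652 without the filter and 892 with these groups alone. IM156 against control gave 0, and 53 without the filter, 2 with DESeq2 and 6 with these groups alone; the interaction gave 0, and 276 without the filter and 165 with DESeq2; the average effect of IM156 gave 2, and 4 with library totals alone, 225 without the filter, 0 with the robust fit and 17 with DESeq2. With single libraries left out, ODN against control gave 774 (ODN replicate 1) to 1888 (ODN replicate 3), ODN+IM156 against ODN 1 to 798 (ODN replicate 3), ODN+IM156 against control 88 (control replicate 2) to 361 (ODN replicate 1), ODN+IM156 against IM156 112 (IM156 replicate 2) to 548 (ODN replicate 1), the interaction 0 to 260 (ODN replicate 3) and the average effect of IM156 1 to 113 (ODN replicate 3). With library totals alone 695 genes were higher and 720 lower for ODN against control, in place of 870 and 385.

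Same-numbered libraries did not deviate together: 0 of 18 correlations of their deviations were over 0.1 (-0.11 to 0.09). With a replicate block the count for ODN against control was 4, and the block changed 1 call, that of Jund in the average effect of ODN (adjusted p = 0.0526). Changes of about 0.5 on the log2 scale were often not called in the simulated counts with 3 libraries per group. Fosl2, at 1 to 10 counts, was limited by depth.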

Other observations

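The authors' deposited table gives its own fold changes, as linear ratios, and p-values with no stated adjustment. The shares below are over all 23282 rows, of which 5883 had no count in any library, whereas 9 of the 10 members passed the filter. They are therefore lower than shares of tested genes would be. In edgeR's test 2987 of 11857 tested genes had an unadjusted p below 0.05 for ODN against control, with 6 of 9 members. For ODN+IM156 against ODN there were 1919 genes, with 6 of 9 members. For ODN over control, the authors' deposited table has 4 of the 10 members at a p below 0.05, all lower: Junb at 0.63 (p = 0.004), Dusp1 at 0.567 (p = 0.012), Fosb at 0.509 (p = 0.013) and Fos at 0.643 (p = 0.022), where 7.63% of all rows have a p below 0.05. For ODN+IM156 over ODN, the authors' deposited table has 5 members at a p below 0.05, all higher (5.8% of all rows): Egr1 at 1.538 (p = 0.024), Fosb at 2.23 (p = 0.026), Junb at 1.319 (p = 0.027), Egr3 at 1.13 (p = 0.028) and Fos at 1.476 (p = 0.031). For IM156 over control, the authors' deposited table has Dusp1 at 1.328 (p = 0.015) and Fos at 1.307 (p = 0.025), 2 of 10 members against 3.1% of all rows. The authors' deposited table also compares IM156 with ODN, a contrast not tested here, and has 7 of the 10 members at a p below 0.05, 6 of them higher with IM156 and Egr3 lower, against 8.38% of all rows.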
